A study of Rattus norvegicus with 20 samples.

Results

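Of the 39747 genes counted in these dorsal root ganglia (DRG), 10 genes for subunits of voltage-gated calcium channels were chosen by name, and all 10 were found in the count table by symbol. They comprise the α2δ genes Cacna2d1, Cacna2d2, and Cacna2d3, the pore genes Cacna1a, Cacna1b, Cacna1c, Cacna1e, and Cacna1h, and the β genes Cacnb3 and Cacnb4. The DRG came from 14 female Sprague-Dawley rats, 8 to 10 weeks old, fed soy oil (SOD) or fish oil (FOD) for 4 weeks before surgery on the left sciatic nerve. In chronic constriction injury (CCI), loose ligatures were tied around the nerve, whereas sham surgery (CT) exposed it without tying. DRG were taken 7 days after surgery. Each of the 14 rats gave 1 left library: soy oil with sham surgery (SOD-CT) had 4, soy oil with injury (SOD-CCI) 3, fish oil with sham surgery (FOD-CT) 3, and fish oil with injury (FOD-CCI) 4. A right (contralateral) library was also made for each SOD-CCI rat and for FOD-CCI rats 1, 2, and 3. Within a group, libraries are thus separate rats. All groups shared the anesthesia, the incision, and a purified diet based on the AIN-93G formulation.

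A voltage-gated calcium channel is built around an α1 subunit, which forms the pore and senses voltage. The β subunit binds the pore from inside the cell and the α2δ subunit from outside, and both raise the number of channels at the membrane. In sensory neurons, N-type (Cacna1b) and P/Q-type (Cacna1a) channels open transmitter release at the central terminal, L-type channels (Cacna1c) couple activity to gene expression, and T-type channels (Cacna1h) set excitability near rest. Gabapentin and pregabalin bind the products of Cacna2d1 and Cacna2d2, and not that of Cacna2d3. A rise of Cacna2d1 in DRG after nerve injury is a textbook observation, so the comparisons below ask how each subunit stood on the injured side under each diet.

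Libraries held 22547190 to 54437581 counts, and 3 of them stood apart before any test. Spinal cord markers (12 genes, among them Mog, Opalin, and Gfap) averaged 7.63 in FOD-CT 1, 7.41 in the library labelled FOD-CCI 1, and 7.93 in FOD-CCI contralateral 1, as log2 CPM (counts scaled to a library total of 1000000), against at most 1.26 in the other libraries. Both DRG of FOD-CCI rat 1 are among them. That rat's left library also went against its label: Atf3, a transcription factor induced in injured sensory neurons, stood at 3.27 CPM there, against 202, 501, and 334 CPM in FOD-CCI 2, 3, and 4 and 263 to 333 CPM in SOD-CCI. Gal, a neuropeptide induced alike, stood at 8.63 CPM there, against 89.1, 383, and 283 CPM in the other FOD-CCI libraries. Sprr1a, likewise induced by injury but too low for the test in uninjured DRG, had no count there and 4.33 to 20.9 CPM in the other 3. Skeletal muscle markers (11 genes) took 11.7% of counts in SOD-CT 1 and 2.57% in FOD-CT 2, and under 1% elsewhere. All 15 neuron markers were detected in every group, with mean log2 CPM of 8.70 to 8.85 in SOD-CCI, 8.11 to 8.62 in FOD-CCI, 7.18 to 8.77 in SOD-CT, 7.87 to 8.74 in FOD-CT, and as little as 5.15 in FOD-CCI contralateral 1. The part of these tissue differences in the results was not tested, and values without such libraries stand beside the main results.

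Per transcript length, the β gene Cacnb3 had the highest level of the 10 in sham DRG. Its median over the 7 sham libraries was 77.8 FPKM (fragments scaled by gene length and depth, range 38.3 to 101). It was followed by Cacna2d3 (19.5 FPKM), Cacna2d1 (13.2), Cacna1b (6.22), Cacna1a (5.74), Cacnb4 (5.56), Cacna2d2 (5.53), Cacna1c (3.18), Cacna1h (2.70), and Cacna1e (0.118). In that order only Cacnb3 and its neighbour had ranges that did not overlap. Within a library, Cacna2d1 exceeded Cacna1b in 7 of 7 sham libraries and Cacna2d3 exceeded Cacna2d1 in 6 of 7. The FPKM of Cacna1a exceeded that of Cacnb4 in 4 of 7, Cacnb4 exceeded Cacna2d2 in 2 of 7, and Cacna1c exceeded Cacna1h in 4 of 7, so these neighbours had no steady order. Cacna1e, the R-type pore gene, was at 0 counts in 5 of the 20 libraries and reached 10 counts in 13. It was therefore the only member that did not pass the filter on low counts, and 9 were tested. Its highest levels, 12.9 CPM in FOD-CT 1 and 5.63 CPM in FOD-CCI contralateral 1, were in libraries with spinal cord transcripts, and it did not pass 2.51 CPM elsewhere.

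**Figure D1:**
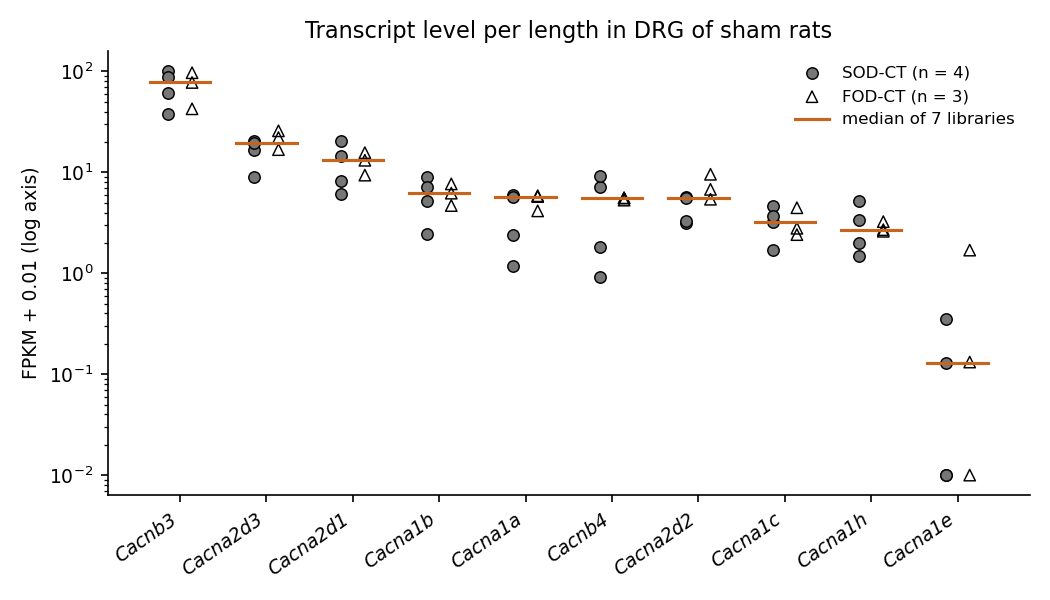
FPKM of the 10 subunit genes (log axis, with 0.01 added so that libraries at 0 can be drawn) in each sham library, circles for SOD-CT (n = 4) and triangles for FOD-CT (n = 3), with the median of the 7 libraries as a line. Cacnb3 stands highest at a median of 77.8 FPKM and Cacna1e lowest at 0.118 FPKM.

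Sequence upstream of the annotated genes, from RefSeq (GRCr8), is shown for Cacna2d1 and Cacna1b, the 2 members that were higher on the injured side in all 6 rats . Of the 10 members, 3 had 110 bases before their annotated 5′ end in the promoter table, Cacna2d1, Cacna2d3, and Cacna1b. Capitals mark the GC box (GGGCGG on either strand).
Cacna2d1, chr4:20330288-20330397, minus strand: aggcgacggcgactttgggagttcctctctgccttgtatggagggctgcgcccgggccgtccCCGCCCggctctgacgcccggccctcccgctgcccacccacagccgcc
Cacna1b, chr3:27944293-27944402, minus strand: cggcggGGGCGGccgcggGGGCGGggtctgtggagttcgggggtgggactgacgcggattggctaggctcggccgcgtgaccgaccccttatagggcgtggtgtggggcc
GC content was 74.5% and 75.5%, against a median of 52.7% over 22579 genes with as many bases. Cacna2d1 and Cacna2d3 held 1 GC box each and Cacna1b held 2, and 21.4% of the 22579 held any. Neither an AP-1 motif (TGANTCA, in 2.69% of all) nor a cAMP response element (TGACGTCA, in 1.12%) was found in these windows on either strand, and the 3 motifs do not overlap each other there. A match or its lack describes these letters alone.

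Cacna2d1, the main gabapentin target, was the member that differed most between injured and uninjured DRG. It stood at 251, 329, and 266 CPM in SOD-CCI 1, 2, and 3. In SOD-CT 1 to 4 it stood at 15.2, 86.7, 61.1, and 31.7 CPM. All 3 injured libraries were above all 4 sham libraries, and the lowest sham value was in the library with 11.7% of muscle counts. In FOD-CCI 1 to 4 it stood at 15.3, 77.6, 302, and 284 CPM. In FOD-CT 1, 2, and 3 it stood at 41.6, 59.5, and 54.8 CPM. The FOD groups overlapped through the library labelled FOD-CCI 1 alone, and the other 3 injured libraries were above all 3 FOD-CT libraries. On the uninjured right side, Cacna2d1 stood at 42.5, 41.4, and 60.5 CPM in SOD-CCI rats. In FOD-CCI rats it stood at 6.92, 37.4, and 46.3 CPM there. Rats 1 and 2 were thus below the FOD-CT libraries, and the right SOD libraries were within the SOD-CT range. Because these are bulk tissue measurements, fewer cells of a type and less RNA per cell cannot be told apart.

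**Figure D2:**
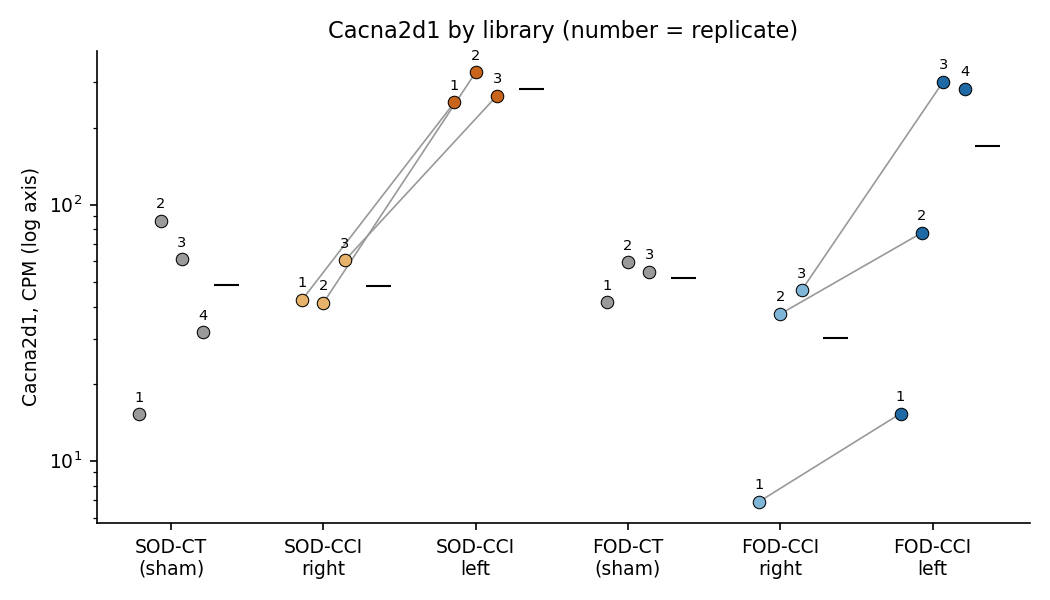
Cacna2d1 CPM (log axis) in each of the 20 libraries, numbered by replicate, with the group mean as a bar and a line joining the right and left DRG of 1 rat. The 3 SOD-CCI left libraries lie between 251 and 329 CPM, and in FOD-CCI left libraries 1 value of 15.3 CPM lies below the others.

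With the rat as a block, Cacna2d1 rose on the injured side. Genes are called changed here where the adjusted p does not exceed 0.1 and the fold change is 1.2 or more. The log2 fold change (log2FC) of left against right was 2.51 (SE 0.33) in SOD-CCI rats, with an edgeR adjusted p of 0.0449. Cacna2d1 was 1 of 9 members called, where 0.131% of all 14549 genes were. Averaged over diets the log2FC was 2.08 (SE 0.23, edgeR adjusted p = 0.0127), a 4.23-fold rise on average. Left exceeded right in 6 of 6 rats, as for 5.16% of all genes. The ratio of left to right was 5.89, 7.94, and 4.40 in SOD-CCI rats and 2.21, 2.08, and 6.53 in FOD-CCI rats. Cacna2d1 was again the only member called, against 0.962% of all genes, and 2 members (Cacna2d1 and Cacna1b) had an unadjusted p under 0.05, against 11.6%. In SOD-CCI rats the same 2 did, against 8.48%. In FOD-CCI rats alone the log2FC was 1.65 (SE 0.33, edgeR adjusted p = 0.438) with 3 of 3 rats higher, as for 11.4% of all genes. No member was called by edgeR, although 2 had an unadjusted p under 0.05 and DESeq2 called Cacna2d1. There 0.0137% of all genes were called and 6.96% had an unadjusted p under 0.05, and without FOD-CCI rat 1 Cacna2d1 passed at 1.88 (edgeR adjusted p = 0.0780). The difference between diets was −0.86 (SE 0.45), with an edgeR adjusted p of 0.997, and −0.63 (SE 0.46) without that rat. For this difference edgeR called 0 members (0% of genes) and none had an unadjusted p under 0.05, against 2.91% of genes, and DESeq2 called 0. Neuron markers were higher on the left in 12 of 15 genes in FOD-CCI rats (median log2FC 0.70) and in 5 of 15 in SOD-CCI rats (median −0.09). In FOD-CCI rat 1 their mean log2 CPM was 8.11 on the left and 5.15 on the right. The sides were closer in FOD-CCI rat 2 (8.24 left, 8.62 right) and rat 3 (8.62 left, 8.47 right). Macrophage markers were higher on the left in 7 of 7 genes in SOD-CCI rats (median 1.72, 6 with an unadjusted p under 0.05) and in 5 of 7 in FOD-CCI rats (median 0.46). Fibroblast markers were higher on the left in 4 of 4 genes in SOD-CCI rats (median 0.83) and lower in 4 of 4 in FOD-CCI rats (median −1.02). The part of these cells in the Cacna2d1 result was not tested.

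The SOD call was lost without any 1 of the SOD-CCI rats. In edgeR, leaving out SOD-CCI rat 1, 2, or 3 kept the SOD log2FC of Cacna2d1 between 2.30 and 2.69 but raised the adjusted p to 0.671, 0.741, and 0.396. The average over diets lost its call without SOD-CCI rat 1 (2.08, edgeR adjusted p = 0.141) or rat 2 (1.98, edgeR adjusted p = 0.107) and kept it without rat 3 (2.17, edgeR adjusted p = 0.0781).

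Against sham, the difference in Cacna2d1 was close to that within rats but did not pass in this model. SOD-CCI exceeded SOD-CT by a log2FC of 2.46 (SE 0.70, edgeR adjusted p = 0.266), and FOD-CCI exceeded FOD-CT by 1.73 (SE 0.73, edgeR adjusted p = 1.00). Averaged over diets, CCI exceeded CT by 2.09 (SE 0.51, edgeR adjusted p = 0.130). No gene of 14484 was called in any of the 3 comparisons (0% of genes and 0 of 9 members). At an unadjusted p under 0.05 stood 2 members in SOD (Cacna2d1 and Cacna1b, against 13.8% of genes), 2 in FOD (Cacna2d1 and Cacna2d3, against 4.52%), and 1 in the average (Cacna2d1, against 11.5%). DESeq2 called Cacna2d1 in SOD (adjusted p = 0.0239) and in the average (adjusted p = 0.00157), and called no member in FOD. Without the library labelled FOD-CCI 1, Cacna2d1 passed in the average at 2.28 (edgeR adjusted p = 0.00612) and in SOD at 2.46 (edgeR adjusted p = 0.0807). In FOD it reached 2.11 without that library (edgeR adjusted p = 0.147). Without SOD-CT 1, the library with most muscle counts, Cacna2d1 stood at 2.22 in SOD (edgeR adjusted p = 0.529). Macrophage markers were higher in CCI than in CT in 6 of 7 genes in SOD (median log2FC 0.70) and in 7 of 7 in FOD (median 1.48). Skeletal muscle markers were lower in CCI in 4 of 4 genes tested in SOD (median −10.35) and in FOD (median −7.28). The part of both in the result was not tested.

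**Figure D3:**
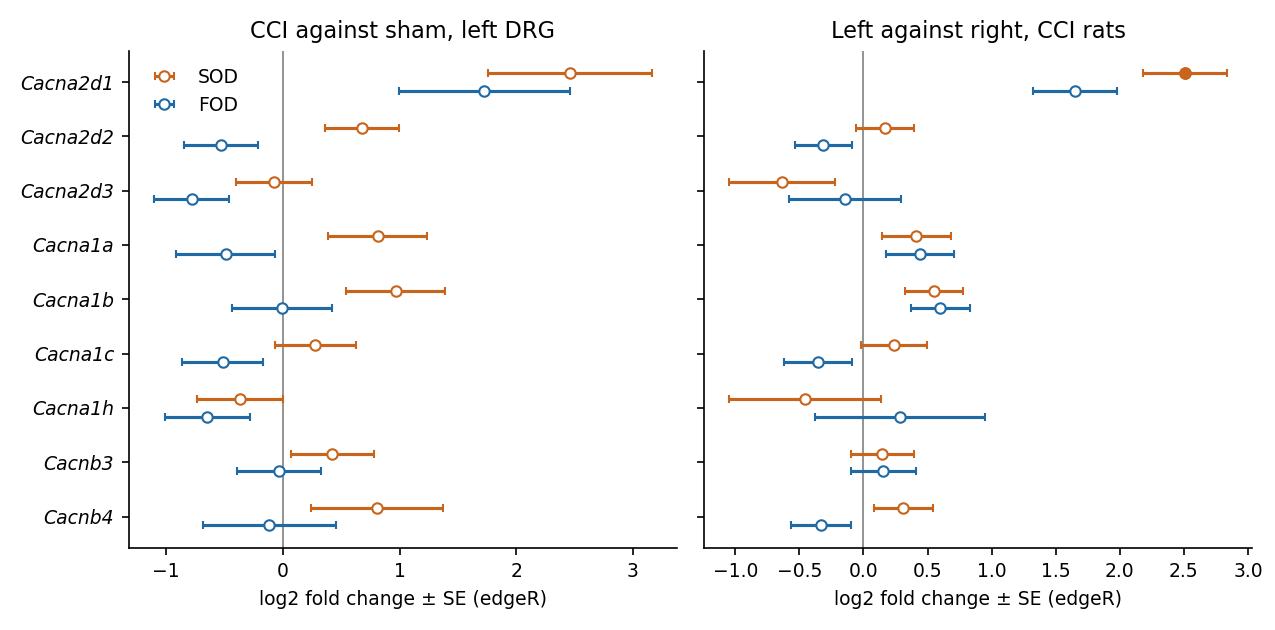
Log2 fold change with its standard error (edgeR) for the 9 tested members, CCI against sham in left DRG (left panel) and left against right DRG within CCI rats (right panel), with SOD in orange and FOD in blue. The filled point, Cacna2d1 in SOD-CCI rats at 2.51, is the only one of those drawn that was called.

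Within a library, Cacna2d1 made up a larger part of all α2δ transcripts in injured DRG. Its share of the summed FPKM of Cacna2d1, Cacna2d2, Cacna2d3, and Cacna2d4, which needs no scaling between libraries, was 73.2%, 76.6%, and 74.7% in SOD-CCI. In SOD-CT it was 33.7%, 44.1%, 39.4%, and 26.6%, and in FOD-CT it was 26.0%, 36.2%, and 28.5%. The library labelled FOD-CCI 1 had 11.9%, whereas FOD-CCI 2, 3, and 4 had 59.2%, 81.9%, and 84.5%. Every injured library but that one lay above every sham library. The mean difference between CCI and CT was 34.0 percentage points (exact two-sided permutation test within diets, 14 libraries, p = 0.00735), and 41.9 points without FOD-CCI 1 (exact permutation p = 0.00143). Leaving out the only injured library not above sham fixes the latter p at the smallest that its 700 arrangements can give.

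Right DRG of SOD-CCI rats had shares of 24.0%, 28.8%, and 31.8%, and those of FOD-CCI rats 8.19%, 22.6%, and 38.2%. The left exceeded the right in 6 of 6 rats, by 37.3 points on average (exact two-sided test over all 64 sign changes, p = 0.03125, the smallest it can give). In FOD-CCI rat 1 the share was 8.19% on the right and 11.9% on the left. Over the gabapentin-binding pair alone, Cacna2d1 had 90.6% ± 0.882 (SD, n = 3) in SOD-CCI and 72.2% ± 5.04 (SD, n = 4) in SOD-CT. It had 76.1% ± 29.3 (SD, n = 4) in FOD-CCI and 63.3% ± 12.6 (SD, n = 3) in FOD-CT. Only the library labelled FOD-CCI 1, at 33.2%, was not above FOD-CT. The difference between CCI and CT over both diets was then 15.6 points (exact permutation p = 0.107, 14 libraries).

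**Figure D4:**
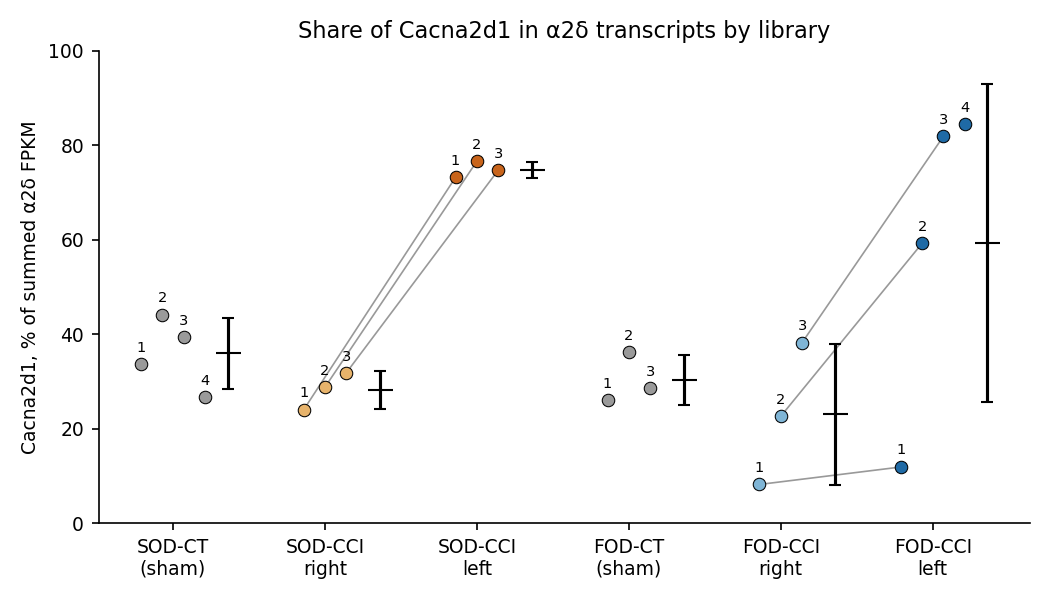
Cacna2d1 as a percentage of the summed α2δ FPKM in each library, numbered by replicate, with group mean and SD, and lines joining both DRG of 1 rat. SOD-CCI left libraries sit at 73.2% to 76.6% and SOD-CT libraries at 26.6% to 44.1%, and the library labelled FOD-CCI 1 sits at 11.9%.

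Cacna2d2, the other gabapentin-binding subunit, was not called in any comparison. It stood at 25.9, 28.5, and 23.1 CPM in SOD-CCI and at 6.89, 21.0, 20.9, and 11.2 CPM in SOD-CT, so that the groups did not overlap. Without overlap and higher in SOD-CCI were also Cacna2d1 and Cacna1b, 3 of 9 members where 11.8% of all genes were. The log2FC of Cacna2d2 was 0.68 (SE 0.32, edgeR adjusted p = 0.362), and 0.53 without SOD-CT 1. In the FOD groups its order was the opposite: 27.4, 15.5, 14.8, and 14.2 CPM in FOD-CCI against 37.8, 18.3, and 25.1 CPM in FOD-CT, with a log2FC of −0.53 (SE 0.32, edgeR adjusted p = 1.00). The highest value of each FOD group was in its library with spinal cord transcripts, and without FOD-CCI 1 the injured group was below every sham library (log2FC −0.80, SE 0.30, edgeR adjusted p = 0.365). Over all 14484 genes, log2FC against sham had a Spearman correlation with gene length of 0.231 in SOD and −0.233 in FOD. The 9 tested members are long, with a median of 3928 bases against 2357. The part of length in the opposite order was not tested. Within rats Cacna2d2 was close to even between sides, at a log2FC of 0.17 (SE 0.22) in SOD and −0.31 (SE 0.22) in FOD. In FOD-CCI rats it was lower on the left in 3 of 3, as was Cacnb4, where 11.7% of all genes were.

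Cacna2d3, whose product does not bind gabapentin, had the lowest log2FC of the 9 members in FOD-CCI against FOD-CT. It stood at 67.1, 28.6, 39.9, and 28.9 CPM in FOD-CCI against 60.8, 68.4, and 87.6 CPM in FOD-CT (log2FC −0.78, SE 0.32, edgeR adjusted p = 1.00). The groups overlapped only through the library labelled FOD-CCI 1, without which the log2FC was −1.12 (edgeR adjusted p = 0.171). In SOD-CCI it stood at 50.5, 54.3, and 52.1 CPM, below 69.6, 57.7, and 61.2 CPM in SOD-CT 2, 3, and 4 and above 18.1 CPM in SOD-CT 1, the library with 11.7% of muscle counts. The log2FC of Cacna2d3 there was −0.08 (SE 0.33), and −0.30 without SOD-CT 1. Left against right, Cacna2d3 was lower on the injured side in 3 of 3 SOD-CCI rats, where 16% of all genes were lower in every rat. In FOD-CCI rats its ratios of left to right were 2.25, 0.336, and 0.949 (log2FC −0.14, SE 0.44), with rat 1 against the others. Averaged over diets its log2FC was −0.39 (SE 0.30, edgeR adjusted p = 0.659). Without FOD-CCI rat 1 that became −0.73, and Cacna2d3 was then called (edgeR adjusted p = 0.0812).

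Among the pore genes, Cacna1b, the N-type channel of the central terminal, was the one nearest to Cacna2d1. It stood at 120, 118, and 119 CPM in SOD-CCI, with 15.0, 93.3, 75.6, and 49.3 CPM in SOD-CT, and the groups did not overlap (log2FC 0.97, SE 0.42, edgeR adjusted p = 0.341, and 0.69 without SOD-CT 1). Neuron markers were higher in SOD-CCI in 11 of 15 genes (median log2FC 0.42). In FOD-CCI 1 to 4 it stood at 28.9, 45.7, 102, and 69.0 CPM against 51.5, 58.5, and 79.2 CPM in FOD-CT, and these overlapped (log2FC −0.01, SE 0.43). Left exceeded right in 6 of 6 rats, as did 5.16% of all genes, whereas no member was lower in 6 of 6, as 2.56% of genes were. Cacna1b had ratios of 1.95, 1.56, and 1.15 in SOD-CCI rats and 1.64, 1.02, and 2.02 in FOD-CCI rats. The average log2FC of Cacna1b was 0.58 (SE 0.16, edgeR adjusted p = 0.212), and DESeq2 called it (adjusted p = 0.0549). FOD-CCI rat 2, at 1.02, was nearly even between sides. The neuron markers, given above, differed most between sides in FOD-CCI rat 1.

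Cacna1a, the P/Q-type pore gene, stood at 53.3, 63.8, and 64.8 CPM in SOD-CCI and between 6.36 and 54.2 CPM in SOD-CT, with overlap (log2FC 0.81, SE 0.43, edgeR adjusted p = 0.401, and 0.50 without SOD-CT 1). In FOD-CCI it ran from 23.1 to 41.2 CPM and in FOD-CT from 34.3 to 56.6 CPM (log2FC −0.49, SE 0.43). Left against right it differed by a log2FC of 0.43 (SE 0.19, edgeR adjusted p = 0.432) on average, with 5 of 6 rats higher on the left. In FOD-CCI rats it was higher on the left in 3 of 3, as were Cacna2d1 and Cacna1b, where 11.4% of all genes were.

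The L-type pore gene Cacna1c ran from 24.7 to 43.1 CPM in SOD-CCI, 8.69 to 41.5 CPM in SOD-CT, 14.3 to 25.8 CPM in FOD-CCI, and 19.2 to 38.9 CPM in FOD-CT. Its log2FC was 0.28 (SE 0.35) in SOD and −0.51 (SE 0.35) in FOD, and −0.06 (SE 0.18) for left against right on average, none of them called. Without SOD-CT 1 the SOD value of Cacna1c was 0.04. Cacna1h, the T-type pore gene, was lower in injured DRG by point estimate under both diets, with a log2FC of −0.37 (SE 0.37, and −0.61 without SOD-CT 1) in SOD and −0.65 (SE 0.36, edgeR adjusted p = 1.00) in FOD. Its FOD groups did not overlap (10.7 to 16.9 CPM in FOD-CCI, 19.7 to 27.0 CPM in FOD-CT), as held in that direction for 2.54% of all genes. In FOD-CCI rat 1 the left to right ratio of Cacna1h was 6.92, from a right value of 1.55 CPM, whereas rats 2 and 3 had 0.683 and 0.546. Without that rat its average left against right log2FC was −0.59 (SE 0.20, edgeR adjusted p = 0.147). Cacna1e, untested, ran from 0.656 to 2.49 CPM in SOD-CCI and from 0.604 to 1.93 CPM in FOD-CCI.

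**Figure D5:**
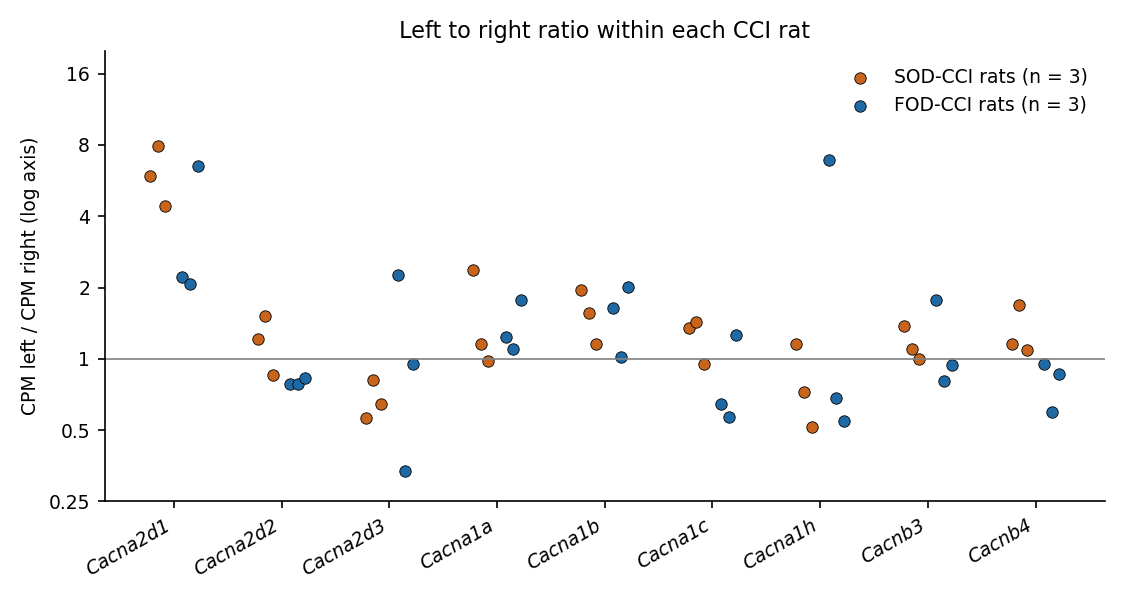
Ratio of left to right CPM (log axis, line at 1) for the 9 tested members in each CCI rat, SOD-CCI in orange and FOD-CCI in blue. All 6 ratios of Cacna2d1, from 2.08 to 7.94, and all 6 of Cacna1b, from 1.02 to 2.02, lie above 1, and the other members have rats on both sides.

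Neither Cacnb3 nor Cacnb4 was called in any comparison. Cacnb3, the most abundant, ran from 243 to 264 CPM in SOD-CCI, 59.7 to 268 CPM in SOD-CT, 104 to 235 CPM in FOD-CCI, and 119 to 255 CPM in FOD-CT. Its log2FC was 0.42 (SE 0.36, and 0.20 without SOD-CT 1) in SOD, −0.03 (SE 0.36) in FOD, and 0.15 (SE 0.18) for left against right on average. Its levels followed the neuron markers more closely than those of any other tested member, with a Spearman correlation of 0.817 over the 20 libraries, a description over libraries that share their depth and tissue content. For Cacna1b this correlation was 0.795, close to that of Cacnb3, and for Cacnb4 0.705. The other members lay between 0.504 (Cacna1a) and 0.550 (Cacna2d1), apart from Cacna2d2 at 0.259. Cacnb4 ran from 27.8 to 37.5 CPM in SOD-CCI, 2.15 to 37.2 CPM in SOD-CT, 13.9 to 27.0 CPM in FOD-CCI, and 19.4 to 23.8 CPM in FOD-CT. Its log2FC was 0.80 (SE 0.57, and 0.45 without SOD-CT 1) in SOD and −0.12 (SE 0.57) in FOD. Left exceeded right for Cacnb4 in 3 of 3 SOD-CCI rats (0.31, SE 0.23), as did Cacna2d1, Cacna1b, and Cacnb3, where 25% of all genes did, and was below it in 3 of 3 FOD-CCI rats (−0.33, SE 0.23), as Cacna2d2 did.

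Between diets, every tested member was lower by point estimate in FOD-CCI than in SOD-CCI, where 45.7% of all genes were lower, and none was called (0% of genes, and 0 of 9 members by edgeR and by DESeq2). The log2FC ran from −0.89 for Cacna1b to −0.28 for Cacna2d3, with a median of −0.67 where the median of all genes was 0.04. Cacna2d1 differed by −0.67 (SE 0.69, edgeR adjusted p = 0.899), and by −0.29 (SE 0.49) without the library labelled FOD-CCI 1. Only Cacna1c had an unadjusted p under 0.05 (−0.81, SE 0.35, edgeR adjusted p = 0.859), against 5.4% of genes. For Cacna1a, Cacna1b, Cacna1h, Cacnb3, and Cacnb4, 5 of 9, the groups did not overlap, as for 9.28% of all genes in that direction. Gene length moved with this comparison: over all 14484 genes the Spearman correlation of log2FC with length was −0.347, and the tested members are long, with a median of 3928 bases against 2357. With a correction for length all 9 remained lower, between −0.62 and −0.07, with a median of −0.54. Neuron markers were also lower in 13 of 15 genes (median log2FC −0.27). Higher in FOD-CCI were 3 of 3 red cell markers tested (median 4.51, all with an unadjusted p under 0.05), 4 of 4 spinal cord markers tested (median 3.68), and 7 of 7 macrophage markers (median 0.86). Mean log2 CPM of all 12 spinal cord markers was 7.41 in FOD-CCI 1 and −2.02 to −1.17 in FOD-CCI 2, 3, and 4. In SOD-CCI it was −1.47 to −0.61. Mean log2 CPM of all 5 red cell markers was 7.36 in FOD-CCI 2 and at most 2.79 in the other FOD-CCI libraries. In SOD-CCI it was at most 1.39. The part of length and of these tissues in the result was not tested.

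The interaction of diet and injury was negative for all 9 by point estimate, where 48.6% of all genes were negative. It was −1.20 (SE 0.45) for Cacna2d2 and −1.30 (SE 0.60) for Cacna1a, the 2 members with an unadjusted p under 0.05, where 5.01% of genes had one. Neither was called (edgeR adjusted p = 0.894 for both, 0% of genes called), and DESeq2 called no member. For Cacna2d1 the interaction was −0.73 (SE 0.97). Without FOD-CT 1 and FOD-CCI 1 the estimate was −1.23 (SE 0.41) for Cacna2d2, −1.24 (SE 0.71) for Cacna1a, and −1.19 (SE 0.41) for Cacna2d3. Gene length moved with the interaction too, at a Spearman correlation of −0.351 over all 14484 genes. With the correction for length all 9 remained negative, and their median went from −0.79 to −0.59, the highest at −0.03. Neuron markers were negative in 13 of 15 genes (median −0.29). The part of length and of neuron content in the interaction was not tested.

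In uninjured DRG no member was called by edgeR or DESeq2 in any of the comparisons (0% of genes by edgeR). FOD-CT against SOD-CT gave log2FC from −0.06 to 0.75, the highest for Cacna2d2 (SE 0.32, edgeR adjusted p = 0.965), which alone had an unadjusted p under 0.05, against 3.39% of genes, and stood at 0.50 (SE 0.29) without FOD-CT 1 and FOD-CCI 1. Of the 9 members 7 were higher by point estimate. Without the muscle-rich libraries SOD-CT 1 and FOD-CT 2, Cacna1e also passed the filter, and 4 of 10 were higher and 6 lower, from −0.35 for Cacna2d1 to 2.55 for Cacna1e. Cacna2d1 differed by 0.06 (SE 0.69) with all libraries. Right DRG of SOD-CCI rats differed from SOD-CT by −0.05 (SE 0.54) in Cacna2d1, with the 9 members between −0.05 and 0.56 and none under an unadjusted p of 0.05, against 7.06% of genes. Right DRG of FOD-CCI rats differed from FOD-CT by −0.74 (SE 0.58) in Cacna2d1, with the 9 between −0.94 (Cacna1a) and 0.04 (Cacnb4), again with none under 0.05, against 1.71%. There Cacna1a and Cacna1b did not overlap and were lower, where 4.74% of genes did so, and neuron markers were lower in 14 of 15 genes (median −0.32). Without FOD-CCI contralateral 1, Cacna2d1 stood at −0.27 (SE 0.44), Cacna1a at −1.04 (SE 0.61), and Cacna1b at −0.35 (SE 0.44). Between the right DRG of both diets, Cacna1b had a log2FC of −1.05 (SE 0.47, edgeR adjusted p = 0.697) in FOD against SOD, without overlap, where 8.93% of genes were lower in that way, and neuron markers were lower in 14 of 15 genes (median −0.51). Without FOD-CCI contralateral 1 that log2FC was −0.70 (SE 0.45). It alone had an unadjusted p under 0.05, against 7.1% of genes. These comparisons share their sham or right libraries.

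Other genes of the channel complex were taken as lists. Of 16 further subunit genes 11 were tested left against right, and averaged over diets 1 was called, where 0.962% of all genes were. Cacnb1, a β gene, was higher on the left in 6 of 6 rats (log2FC 0.85, SE 0.17, edgeR adjusted p = 0.0907), as were 5.16% of all genes. It stood at 63.4 to 66.1 CPM in SOD-CCI against 25.0 to 37.7 CPM on the right. FOD-CCI, at 24.8 to 75.8 CPM, overlapped its right side at 22.1 to 42.1 CPM. Sham libraries ran from 23.6 to 86.7 CPM in SOD-CT and from 34.1 to 50.8 CPM in FOD-CT, so both sham groups overlapped the injured ones. Cacna1i, a T-type pore gene, stood at 0.501-fold of the right and was lower in 6 of 6 rats (SE 0.44 on the log2 scale, edgeR adjusted p = 0.428), as were 2.56% of all genes. Its level was low, with a median of 1.73 CPM over the 20 libraries, a maximum of 14.5 CPM, and 0 counts in 3 of them. The median log2FC of the 11 was 0.23, where that of all genes was 0.03. In left DRG against sham, 9 were tested and none was called or under an unadjusted p of 0.05. Of all genes, 0% were called there, and 13.8% in SOD, 4.52% in FOD, and 11.5% in the average had an unadjusted p under 0.05. In FOD-CT against SOD-CT, the T-type pore gene Cacna1g had a log2FC of 2.48 (SE 0.91, edgeR adjusted p = 0.965), and FOD-CT ran from 1.63 to 42.8 CPM, the highest in the library with spinal cord transcripts.

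Of 22 partner and regulator genes 21 were tested, and 1 was called for left against right averaged over diets, where 0.962% of all genes were. Stac2, an adaptor of L-type channels, had a log2FC of 5.74 (SE 0.89, edgeR adjusted p = 0.0381). It stood at 65.2 to 82.8 CPM in SOD-CCI and at 0.215 to 0.907 CPM on the right of those rats. On the right of FOD-CCI rats it reached 58.6 CPM, in the library with spinal cord transcripts, so the FOD sides overlapped. Rem2, a small GTPase that binds β subunits and restrains calcium current, pointed the other way in every comparison of injured with uninjured DRG. Its log2FC was −1.87 (SE 0.42, edgeR adjusted p = 0.122) for left against right and −1.74 (SE 0.42, edgeR adjusted p = 0.120) against sham, both averaged over diets. Against SOD-CT, Stac2 had 3.56 (SE 1.18, edgeR adjusted p = 0.271) and Rrad, a relative of Rem2, −3.32 (SE 1.44, edgeR adjusted p = 0.340), with SOD-CT between 1.53 and 42.4 CPM and the highest in the library with most muscle counts. Thbs4, of the thrombospondin family of α2δ ligands, had a log2FC of −1.15 on the left of FOD-CCI rats (SE 0.40, edgeR adjusted p = 0.623). For the difference between diets in that comparison, Thbs4 had −2.01 (SE 0.57), Thbs1 −4.05 (SE 1.26), and Rem2 2.17 (SE 0.81), all at an adjusted p of 0.997 in edgeR. Thbs1 was near the floor in some libraries. It ran from 0.179 to 14.4 CPM on the right and 5.42 to 28.1 CPM on the left of SOD-CCI rats. In FOD-CCI rats it ran from 5.94 to 38.7 CPM on the right and was as low as 0.855 CPM on the left.

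Over the 20 libraries the genes whose log2 CPM was most like that of Cacna2d1, among 14435, were Sdc1 (Spearman correlation 0.947), Scn3b (0.928), Creb3 (0.926), Mob3a (0.926), and Tmod2 (0.925). Scn3b encodes a β subunit of sodium channels, and Sdc1 a heparan sulfate proteoglycan of the cell surface. Among the members, Cacna1b was nearest at 0.794, which ranked 274 of 14435, whereas Cacna2d2 stood at −0.03 and Cacna2d3 at −0.17. The libraries share injury, depth, and tissue content, so these values describe the set and test nothing.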

How the data were processed

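RNA from 20 DRG samples was sequenced after poly-A selection. Per the study's methods and the submitters' processing notes, the authors used fastp to trim, HISAT2 to align, and featureCounts (version 1.5.0-p3) to count reads per gene. The deposited counts are whole numbers per gene and library, not normalized. The authors also deposited FPKM, which in each library equals the count divided by gene length and 1 constant. The genome build is not given in the sources used here, and whether counting used strand is not settled, so reads from genes overlapping on opposite strands may be mixed.

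Counts were tested with edgeR 4.0.16 in R 4.3.3 (TMM scaling, quasi-likelihood test, Benjamini-Hochberg adjustment over all genes tested), on genes with at least 10 counts in 90% of libraries. Left DRG of all groups entered 1 fit (14 libraries, 14484 genes), left and right DRG of 6 CCI rats a fit with the rat as block (12 libraries, 14549 genes, without FOD-CCI 4, which has no right library), and sham and right DRG another (13 libraries, 14007 genes). CPM is the count divided by the library total and scaled to 1000000. FPKM served for levels between genes and for the α2δ share, which was tested by exact permutation (scipy 1.17.1). DESeq2 1.42.0 was an alternative, as were other filters, scalings, blocks, and left-out libraries, and a correction for gene length that was added after seeing the data. The scripts were tested on simulated data, in which the spread between libraries was capped and no library held other tissue. That test does not show the power in these data. The number of rats was small, and depth was 22547190 to 54437581 counts per library. Whether rat number or depth limits the precision more was not tested.

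The members and gene lists were chosen with earlier results of these data known. All 10 members are named in the comparisons. Of the lists of other subunits and of partners, genes named were called or among the 3 with the smallest unadjusted p under 0.05 in a comparison. Not every such gene is described, and Cacna1i is named outside this rule. For likeness, the 5 highest correlations with Cacna2d1 are named. Deviations from group means correlated between both DRG of the same rat at 0.13 to 0.42 in 6 of 6 rats, so the rat is a block there by design. FOD-CT and FOD-CCI libraries of the same number, which are different rats, correlated at 0.42, 0.23, and 0.18, and SOD-CT and SOD-CCI libraries at −0.06 to 0.08. Promoter sequences are from RefSeq, assembly GRCr8.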

Additional observations from a re-analysis of the deposited data

Results flagged for a closer look

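Over the 22 groups of values examined for a library far from the rest, which by chance marks about 1 group in 20, Cacna2d2 in FOD-CCI was marked. It stood at 27.4 CPM in the library labelled FOD-CCI 1 and between 14.2 and 15.5 CPM in the other 3, and that library is 1 of the 3 with spinal cord transcripts. Cacnb4 differed in direction between diets within rats. It was higher on the left in all 3 SOD-CCI rats, with a median ratio of left to right of 1.15, and lower in all 3 FOD-CCI rats, but the tested difference of −0.64 on the log2 scale (SE 0.33, edgeR adjusted p = 0.997) did not pass.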

How the results depend on the processing

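The number of members called moved with the tool and the libraries. SOD-CCI against SOD-CT went from 0 to 1 under DESeq2 and without FOD-CT 1 and FOD-CCI 1, and ran from 0 to 1 over left-out libraries. CCI against CT averaged over diets went from 0 to 1 with no filter, under DESeq2, and without FOD-CT 1 and FOD-CCI 1, and from 0 to 1 over left-out libraries. Left against right in FOD-CCI rats went from 0 to 1 with no filter and under DESeq2, and from 0 to 1 over left-out libraries. Left against right in SOD-CCI rats had 0 to 1 over left-out libraries. Averaged over diets it had 2 under DESeq2 and 0 to 2 over left-out libraries. Without the replicate block, that is with the pairing of left and right DRG dropped, 0 members were called in SOD-CCI rats and 0 in the average. A replicate block added to the comparison with sham, where a shared number marks different rats, moved Cacna2d1 from 2.46 to 2.76 in SOD, from 1.73 to 1.23 in FOD, from 2.09 to 1.99 in their average, and from −0.67 to −1.25 in FOD-CCI against SOD-CCI, and changed no member's call.

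Members near 0 changed sign. In FOD-CCI against FOD-CT, Cacna1b was at 0.00054 with no filter, 0.12 with the length correction, 0.063 without FOD-CT 1 and FOD-CCI 1, and 0.00196 without SOD-CT 1 and FOD-CT 2, and Cacnb3 at 0.000127 with the replicate block and 0.024 without SOD-CT 1 and FOD-CT 2. Averaged over diets without those last libraries, Cacna2d2 was at −0.074 and Cacna1a at −0.053. Left against right in FOD-CCI rats without the replicate block, Cacna1h was at −0.34 and Cacnb3 at −0.051. Over left-out libraries, log2FC ran from −0.30 to 0.055 (Cacna2d3) and −0.61 to 0.044 (Cacna1h) in SOD-CCI against SOD-CT. It ran from −0.38 to 0.23 (Cacna1b), −0.30 to 0.23 (Cacnb3), and −0.30 to 0.012 (Cacnb4) in FOD-CCI against FOD-CT, and from −0.061 to 0.20 (Cacna2d2) and −0.24 to 0.033 (Cacna1c) in the average. For left against right it ran from −0.018 to 0.35 (Cacna2d2) in SOD, and from −0.83 to 0.56 (Cacna2d3), −0.72 to 1.06 (Cacna1h), and −0.20 to 0.38 (Cacnb3) in FOD. In the average of both it ran from −0.16 to 0.025 (Cacna2d2), −0.22 to 0.056 (Cacna1c), −0.59 to 0.30 (Cacna1h), −0.027 to 0.27 (Cacnb3), and −0.10 to 0.090 (Cacnb4). The difference in α2δ share was 15.6 points over Cacna2d1 and Cacna2d2 alone, and left against right 34.9 to 44.1 points over left-out rats, where 5 rats cannot give p under 0.0625. The cause of these moves was not tested. Cacna2d1 kept its direction under every alternative run for CCI against CT and left against right (each diet and their average) and for FOD-CCI against SOD-CCI. In FOD-CT against SOD-CT it went from 0.06 to −0.35 without SOD-CT 1 and FOD-CT 2.

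Over all genes, edgeR and DESeq2 called 0 and 594 in SOD-CCI against SOD-CT, 0 and 21 in FOD, 0 and 476 in their average (224 with no filter, 24 with DESeq2 size factors, 74 with the length correction), 19 and 472 for left against right in SOD (220 with no filter), 2 and 264 in FOD (61), and 140 and 790 in their average (456, and 10 without the block). They called 0 and 2 in FOD-CCI against SOD-CCI, 0 and 42 for the interaction, 0 and 60 for the difference between diets in left against right, 0 and 52 for right DRG against SOD-CT, and 0 and 58 between the right DRG of both diets.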
